A study of Mus musculus with 4 samples.

Results

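The transcription factors and coactivators at the end of the Hippo pathway are described here in mouse heart cells through 7 genes of the 29245 measured. They were taken by name, with earlier results of these data already known. Yap1 and Wwtr1 encode the coactivators YAP and TAZ, and Tead1, Tead2, Tead3 and Tead4 encode the DNA-binding partners of YAP and TAZ. Vgll4 encodes a cofactor that competes with YAP for TEAD proteins. All 7 were found in the count tables by their Ensembl identifiers. The hearts came from 2 Mst1/2-deficient (KO) and 2 wild-type (WT) mice of the C57BL/6 strain, here KO1, KO2, WT1 and WT2. The labels give neither the alleles, nor the cells in which the genes were deleted, nor the age of the mice, nor whether any heart was injured, although the series' title concerns myocardial infarction. Repeated low-speed centrifugation parted each heart into a cardiomyocyte (CM) and a non-cardiomyocyte (NCM) fraction, and single cells went into chip wells that each carried their own barcode. Polyadenylated RNA was counted per gene and well as unique molecular identifiers (UMIs).

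In the Hippo pathway the kinases MST1 and MST2 activate the LATS kinases, and these phosphorylate YAP and TAZ so that the coactivators stay in the cytoplasm or are degraded. When the kinases are inactive, YAP and TAZ enter the nucleus, bind TEAD proteins and switch on genes of growth, matrix and the cytoskeleton. In the heart the pathway is known as a brake on cardiomyocyte proliferation and regeneration, and TEAD1 is known as a regulator of muscle genes in cardiomyocytes. Control of YAP and TAZ by phosphorylation acts on the proteins, which RNA counts do not measure.

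Each of the 4 chips held a single genotype and a single fraction, and every animal was present on the CM and the NCM chip of its genotype. Genotype and chip within a fraction, and fraction and chip within a genotype, therefore cannot be told apart. Of 4275 wells, 3990 had at least 10000 UMIs and 300 genes and were kept. The KO CM chip kept 649 wells (median 144229 UMIs), the KO NCM chip 1462 (88919), the WT CM chip 484 (119502) and the WT NCM chip 1395 (70186). Mitochondrial RNA took 58.1 and 36.5% of the NCM UMIs of KO1 and KO2, against 7.45 and 11.2% in WT1 and WT2. In the CM fraction it took 47.2 and 36.4% in KO, against 38.1 and 35.7% in WT. Haemoglobin RNA took 4.48 and 12.0% of the NCM UMIs in KO, against 1.19 and 3.42% in WT. Levels are therefore given as UMIs per 1000000 UMIs outside mitochondrial and haemoglobin genes (UPM), and those UMIs numbered from 13126144 to 93816921 per animal and fraction. Between pairs of chips 60 to 400 well barcodes were shared. The cardiomyocyte markers matched the fraction labels, with 674 cardiomyocyte-like wells in the CM fraction and 7 in the NCM fraction. In sums over many wells, fewer cells of a type and less RNA per cell cannot be told apart.

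Positions are given in the mm10 genome, from the GENCODE M21 annotation. Yap1 (ENSMUSG00000053110) lies at chr9:7931999-8004596 on the minus strand and Wwtr1 (ENSMUSG00000027803) at chr3:57455649-57575910, also minus. Tead1 (ENSMUSG00000055320) is at chr7:112679318-112906807 and Tead2 (ENSMUSG00000030796) at chr7:45215753-45233644, both on the plus strand. Tead3 (ENSMUSG00000002249) is at chr17:28331671-28350817, Tead4 (ENSMUSG00000030353) at chr6:128224288-128300823 and Vgll4 (ENSMUSG00000030315) at chr6:114860628-114969994, all on the minus strand. The exons of Yap1 share 116 bases with the antisense gene Gm20416, which had 2 NCM UMIs and 0 CM UMIs. The exons of Tead2 share 13 bases with the antisense gene Cd37, which had 6581 NCM and 414 CM UMIs, and because the strand setting of the counting is not given, reads from those bases cannot be assigned with certainty.

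TEAD proteins bind the sequence CATTCC, known as MCAT, and its reverse complement is GGAATG. RefSeq promoters (GRCm38.p6, from 250 bases before to 50 bases after the annotated start) were at hand for 5 of the 7 genes, Tead1 and Tead4 being without one in the table used. Either spelling of the motif stood in at least 1 promoter of 4 of these 5 genes, Tead2 being the exception, against 16.58% of the 27025 genes with a promoter in the table. By promoter it was 6 of 8, against 14.66% of all 32851, but the 2 windows of Wwtr1 overlap and hold the same copy. Those of Yap1, Wwtr1 and Vgll4 are printed because each carries a single copy upstream of the start, and because Wwtr1 and Vgll4 gave the lowest unadjusted p values between genotypes. The motif is in capitals. It begins 141 bases upstream of the start in Yap1 (chr9:8004547-8004846, minus strand), 136 in Wwtr1 (chr3:57575861-57576160, minus) and 82 in Vgll4 (chr6:114969154-114969453, minus).
Yap1: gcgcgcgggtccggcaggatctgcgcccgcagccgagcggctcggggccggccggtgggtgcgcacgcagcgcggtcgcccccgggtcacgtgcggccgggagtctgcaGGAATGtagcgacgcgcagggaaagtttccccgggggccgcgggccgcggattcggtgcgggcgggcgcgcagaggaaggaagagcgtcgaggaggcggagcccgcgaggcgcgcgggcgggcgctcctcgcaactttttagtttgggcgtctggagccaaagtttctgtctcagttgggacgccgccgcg
Wwtr1: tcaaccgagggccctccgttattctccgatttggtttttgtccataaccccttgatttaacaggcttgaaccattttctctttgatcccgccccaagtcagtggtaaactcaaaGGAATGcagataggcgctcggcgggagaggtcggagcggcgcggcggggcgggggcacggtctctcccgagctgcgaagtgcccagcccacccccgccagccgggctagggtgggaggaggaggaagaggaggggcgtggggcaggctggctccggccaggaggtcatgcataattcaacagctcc
Vgll4: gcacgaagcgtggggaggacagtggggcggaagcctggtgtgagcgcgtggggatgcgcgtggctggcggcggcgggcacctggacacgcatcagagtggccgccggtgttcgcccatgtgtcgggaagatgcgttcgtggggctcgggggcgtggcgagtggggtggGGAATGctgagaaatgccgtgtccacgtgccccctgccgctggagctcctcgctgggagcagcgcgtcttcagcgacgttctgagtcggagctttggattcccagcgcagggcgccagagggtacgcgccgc
A match of these letters is a description of the sequence, and no binding was measured.

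The genes named as deficient are Stk4 (MST1) and Stk3 (MST2). Stk4 stood at 45.8 and 37.5 UPM in KO1 and KO2 NCM wells, against 53.1 and 47.3 UPM in WT1 and WT2, and at 17.9 and 9.31 UPM in KO CM wells, against 32.3 and 14.2 UPM in WT. It stood lower in both KO animals than in both WT animals in the NCM fraction, and the CM values overlapped. The log2 difference KO minus WT was −0.44 (SE 0.280, edgeR adjusted p = 0.559) in NCM and −0.90 (SE 0.526, edgeR adjusted p = 0.999) in CM. Stk3 stood at 29.0 and 26.3 UPM in KO NCM wells, against 23.5 and 38.6 UPM in WT, and at 31.2 and 11.9 UPM in KO CM wells, against 12.7 and 13.8 UPM in WT, with overlap in both fractions. Neither gene passed the test, and since the deleted part of each gene is not given, these UMIs cannot check the genotype labels.

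Tead1 was the member that differed between the fractions. In CM wells it stood at 56.2, 59.9, 78.2 and 81.4 UPM in KO1, KO2, WT1 and WT2, against 54.2, 29.5, 21.8 and 20.6 UPM in the NCM wells of the same animals. CM was the higher fraction in 4 of 4 animals, but only just in KO1, and 10.1% of all genes tested were higher in CM in every animal. The log2 difference CM minus NCM was 1.77 (SE 0.383, edgeR adjusted p = 0.0153), with the animal as a block. Of the 7 members, 1 passed as higher in CM, where 8.33% of the 17509 genes tested did, and 0 passed as lower, where 5.92% did. Tead2 and Vgll4 reached an unadjusted p under 0.05 in edgeR, as did 29.9% of all genes counting both directions. DESeq2 called both lower in CM, as it did 2126 of the 17509 genes. The call for Tead1 was lost when only wells under 30% mitochondrial UMIs were used (log2 1.49, edgeR adjusted p = 0.142), a setting that left 18 of the 715 NCM wells of KO1. It was also lost without KO2 (edgeR adjusted p = 0.0629), without WT1 (edgeR adjusted p = 0.0835) and without WT2 (edgeR adjusted p = 0.0660), each time with the CM fraction still higher.

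**Figure D1:**
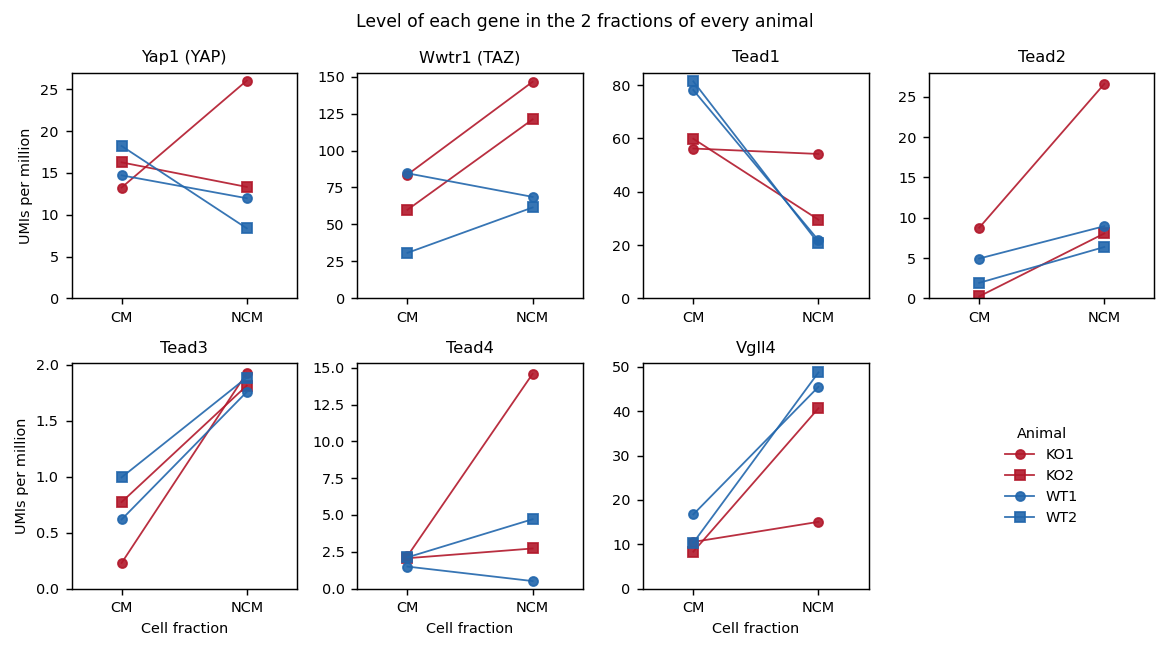
Levels of the 7 genes in UMIs per 1000000 UMIs outside mitochondrial and haemoglobin genes (vertical axis, its own scale in each panel) in the CM and NCM fractions, with a line joining the 2 values of each animal (KO red, WT blue). Tead1 is higher in CM in every animal, with WT1 and WT2 at 78.2 and 81.4 UPM in CM against 21.8 and 20.6 UPM in NCM.

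The other 6 members did not pass between the fractions in edgeR. Vgll4 stood at 10.5, 8.31, 16.7 and 10.3 UPM in the CM wells of KO1, KO2, WT1 and WT2, against 15.05, 40.7, 45.5 and 48.8 UPM in their NCM wells. CM was lower in all 4 animals, as for 37.9% of all genes tested, and the log2 difference was −1.10 (SE 0.352, edgeR adjusted p = 0.0692). Library totals in place of TMM factors took it past the threshold (−1.64, edgeR adjusted p = 0.0212), as did leaving out KO1 (edgeR adjusted p = 0.0324). Library totals also moved the median of all genes, which was −0.28 with TMM and −0.81 with library totals, so that part of the change is common to all genes. Tead2 stood at 8.76, 0.241, 4.94 and 1.92 UPM in CM, against 26.6, 8.05, 8.96 and 6.37 UPM in NCM (log2 −1.65, SE 0.697, edgeR adjusted p = 0.151). It too was lower in the CM wells of each animal.

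Wwtr1, the TAZ gene, stood at 83.7, 59.9, 84.6 and 30.8 UPM in the CM wells of KO1, KO2, WT1 and WT2, against 146.5, 121, 68.7 and 61.5 UPM in NCM. The direction was not the same in all animals, with CM higher in WT1 alone. Yap1 stood at 13.3, 16.3, 14.7 and 18.2 UPM in CM, against 26.1, 13.3, 12.0 and 8.38 UPM in NCM, so that CM was lower in KO1 and higher in the other 3 animals. Tead3 did not exceed 0.994 UPM in any animal's CM wells or 1.93 UPM in NCM wells, and Tead4 did not exceed 2.21 UPM in CM and spread from 0.507 to 14.6 UPM in NCM.

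Wells were grouped by clustering into marker-defined classes, and none of the 7 genes was among the 2000 variable genes that formed the clusters. Cardiomyocyte-like wells of the CM fraction numbered 135 and 250 in KO1 and KO2 and 114 and 175 in WT1 and WT2. In the NCM fraction, fibroblast-like wells numbered 114 and 134 in KO, against 153 and 133 in WT, endothelial-like wells 105 and 82, against 62 and 151, and macrophage-like wells 37 and 46, against 96 and 97. Levels are ordered here over the 6 classes with at least 20 wells in every animal, endothelial-like and macrophage-like CM wells included. Fibroblast markers took 2.20 to 3.07% of the UMIs of fibroblast-like wells, endothelial markers 1.05 to 1.91% of endothelial-like wells and cardiomyocyte markers 4.77 to 7.94% of cardiomyocyte-like wells. Non-cardiomyocyte classes of the CM fraction also carried cardiomyocyte RNA, with cardiomyocyte markers at 0.910 to 3.88% in macrophage-like and 2.32 to 6.10% in endothelial-like CM wells, against 0.0628 to 0.334% in macrophage-like NCM wells. The range of endothelial-like CM wells overlapped that of cardiomyocyte-like wells.

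Of these 6 classes Tead1 had its highest mean in cardiomyocyte-like CM wells, at 80.5 ± 22.0 UPM (SD, n = 4 animals). Its values there were 75.1 and 56.4 UPM in KO1 and KO2, against 81.2 and 109 UPM in WT1 and WT2. Fibroblast-like NCM wells followed at 47.1 ± 21.4 UPM, then macrophage-like (41.1 ± 24.1 UPM) and endothelial-like (38.3 ± 9.19 UPM) CM wells, endothelial-like NCM wells (28.2 ± 20.1 UPM) and macrophage-like NCM wells (7.72 ± 4.63 UPM). Each neighbour in this order overlapped the next, while the lowest cardiomyocyte-like value (56.4 UPM) stood above the highest macrophage-like NCM value (13.8 UPM). Macrophage-like wells thus ranged from 6.04 to 58.1 UPM of Tead1 in CM, where cardiomyocyte markers were also more abundant, and from 4.07 to 13.8 UPM in NCM; the part of cardiomyocyte RNA in this was not tested. Fibroblast-like CM wells, only 17 to 31 per animal and so outside the order, held 93.6, 95.8, 158 and 48.3 UPM in KO1, KO2, WT1 and WT2, with a mean (98.9 UPM) above that of cardiomyocyte-like wells.

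Wwtr1 had its highest class means in endothelial-like wells, at 167 ± 57.7 UPM in NCM and 140 ± 75.0 UPM in CM. Fibroblast-like NCM wells were next at 86.0 ± 34.3 UPM, then macrophage-like NCM (41.8 ± 57.6 UPM), cardiomyocyte-like CM (36.9 ± 10.7 UPM) and macrophage-like CM wells (25.9 ± 20.7 UPM). The neighbours overlapped throughout. Yap1 spread less, with means of 20.03 ± 8.68 UPM in fibroblast-like NCM, 18.2 ± 6.12 UPM in cardiomyocyte-like CM, 17.7 ± 7.02 UPM in endothelial-like NCM and 5.31 ± 5.89 UPM in macrophage-like NCM wells.

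Vgll4 was highest in endothelial-like NCM wells at 64.6 ± 60.0 UPM and lowest in cardiomyocyte-like CM wells at 10.4 ± 12.3 UPM, with the wide spread of the first lying between the genotypes. Tead2 had its highest mean in endothelial-like (18.1 ± 16.2 UPM) and fibroblast-like NCM wells (14.1 ± 8.32 UPM) and its lowest in cardiomyocyte-like CM wells (1.10 ± 1.22 UPM). Tead3 reached 17.9 UPM in macrophage-like NCM wells of KO1, where 36 of its 44 UMIs lay in 1 well, and 5.62 UPM in fibroblast-like NCM wells of KO2, where 81 of 87 did. It was at or under 0.248 UPM in endothelial-like NCM wells of every animal. Tead4 showed the opposite pair, at 2.28 to 25.9 UPM in endothelial-like and 0 to 1.23 UPM in fibroblast-like NCM wells. For these rare genes a value rests on few wells: all 371 Tead4 UMIs of the WT2 endothelial-like wells lay in 6 wells, and 295 of them in 1. Without the top well of each animal the Tead4 levels were 0.221 to 5.41 UPM in endothelial-like and 0 to 0.455 UPM in fibroblast-like wells, and the 2 classes overlapped.

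**Figure D2:**
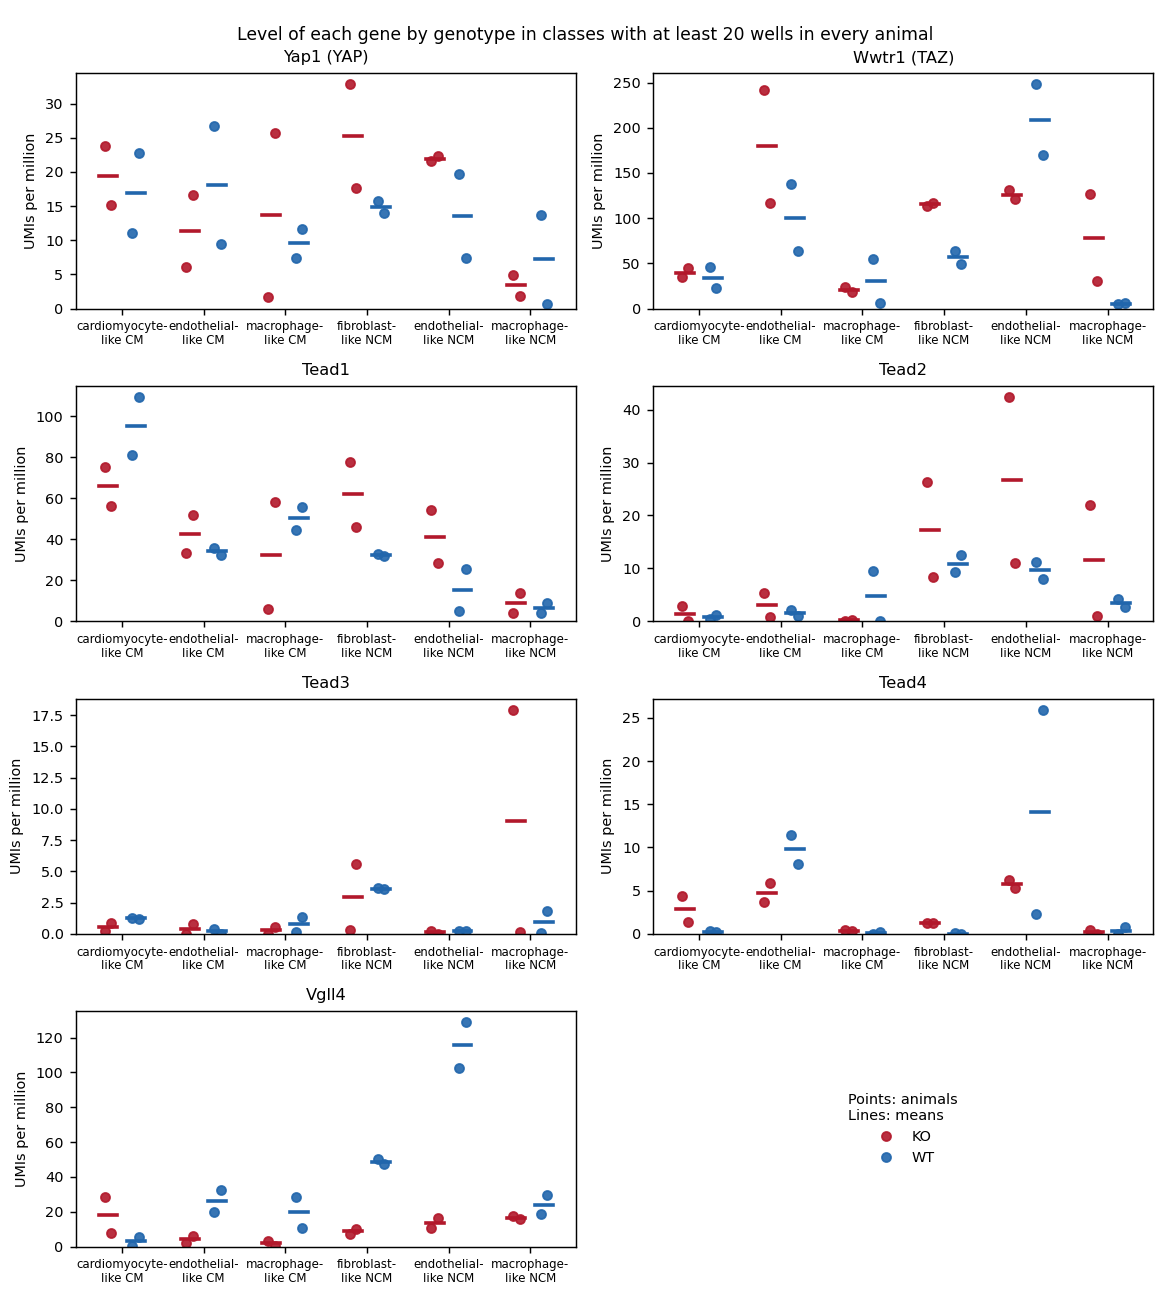
Level of each of the 7 genes in UMIs per 1000000 UMIs outside mitochondrial and haemoglobin genes (vertical axis, its own scale in each panel) in 6 classes, with 1 point per animal (KO left, WT right) and a line at the mean of each pair. Of the classes drawn, Tead1 lies highest on average in cardiomyocyte-like CM wells, Wwtr1 in endothelial-like wells, and Vgll4 in the NCM endothelial-like wells of WT1 and WT2 at 103 and 129 UPM.

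The classes of the NCM fraction were compared over the 4 animals with the animal as a block. Between fibroblast-like and macrophage-like wells, 6 of the 7 members had a positive log2 difference, and Tead1 (2.15, SE 0.679, edgeR adjusted p = 0.0780) and Yap1 (2.11, SE 0.843, edgeR adjusted p = 0.163) had unadjusted p values under 0.05, as 22.3% of all genes did. The Tead1 values were 77.7, 46.2, 32.7 and 31.9 UPM in the fibroblast-like wells of KO1, KO2, WT1 and WT2, against 4.07, 13.8, 4.11 and 8.92 UPM in macrophage-like wells, and the 2 sets did not overlap. edgeR called 0 of 7 members here, where 3.86% of genes were called higher and 4.3% lower. DESeq2 called both Tead1 (adjusted p = 0.0026) and Yap1 (adjusted p = 0.0154), where it called 1596 of 15164 genes higher and 1297 lower. With library totals Tead1 also passed in edgeR (adjusted p = 0.0319), a scaling under which the median of all genes was 0.57, against 0.16 with TMM.

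Between endothelial-like and macrophage-like wells, edgeR again called 0 of 7 members, where it called 2.37% of all genes higher and 3.22% lower, and 3 members had an unadjusted p under 0.05, as 19.8% of genes did. Wwtr1 differed by log2 2.61 (SE 0.844, edgeR adjusted p = 0.102), with 131, 121, 248 and 170 UPM in the endothelial-like wells of KO1, KO2, WT1 and WT2, against 126, 30.3, 4.54 and 6.00 UPM in macrophage-like wells. The classes lay far apart in WT1 and WT2 and close together in KO1. Without KO1 the difference passed (edgeR adjusted p = 0.0245), as it did with no filter on low counts (edgeR adjusted p = 0.0077). Tead4 (log2 5.12, SE 1.71, edgeR adjusted p = 0.114) and Yap1 (1.80, SE 0.821, edgeR adjusted p = 0.249) were the other 2. DESeq2 called all 3, where it called 1360 of 15164 genes higher and 1228 lower. Between fibroblast-like and endothelial-like wells edgeR called 0 of 7, where it called 1.68% of genes higher and 1.56% lower. Tead3 (log2 5.10, SE 1.91, edgeR adjusted p = 0.199) and Tead4 (−3.69, SE 1.63, edgeR adjusted p = 0.276) had unadjusted p values under 0.05, as did 16.7% of genes. DESeq2 called Tead3 (adjusted p = 0.0182), where it called 950 of 15164 genes higher and 848 lower. Single fibroblast-like wells held 81 of 87 Tead3 UMIs in KO2, 78 of 139 in WT1 and 109 of 110 in WT2. Without the top well of each animal, Tead3 levels were 0.0343 to 1.63 UPM in fibroblast-like and 0 to 0.143 UPM in endothelial-like wells. The 2 classes then overlapped.

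The make-up of the TEAD family was compared per kilobase of exon, since longer genes may collect more UMIs. Tead1 held 74.9, 89.1, 94.4 and 94.5% of the TEAD UMIs per kilobase in the cardiomyocyte-like CM wells of KO1, KO2, WT1 and WT2. In fibroblast-like NCM wells it held 49.4, 53.8, 49.2 and 42.7%, with Tead2 at 47.3, 27.5, 39.3 and 47.6%. These 2 sets of wells did not overlap in the share of Tead1, but they differ in fraction as well as in class. Fibroblast-like wells of the CM fraction held Tead1 at 85.9, 99.1, 83.6 and 67.98%, overlapping the cardiomyocyte-like values and above every fibroblast-like NCM value. Endothelial-like CM wells held it at 41.6 to 66.5%, against 10.9 to 35.7% in endothelial-like NCM wells, and macrophage-like CM wells at 62.2 to 95.1%, against 3.91 to 81.5% in NCM. Cardiomyocyte markers were also more abundant in the CM wells of these classes (for fibroblast-like wells, in WT1 and WT2, where at least 20 wells were at hand), and their part in the Tead1 share was not tested. Endothelial-like NCM wells held Tead2 at 60.7, 39.1, 69.4 and 15.6% and Tead4 at 11.8, 25.1, 18.8 and 66.8%, so that no single TEAD gene led in all 4 animals. In WT1 all 54 Tead2 UMIs lay in 1 well, as did 295 of the 371 Tead4 UMIs of WT2. Without the top well of each gene and animal, and not divided by length, Tead1 stood highest in each animal. Its levels were then 36.6, 20.8, 3.34 and 17.8 UPM, against 26.6, 4.38, 0 and 4.05 UPM for Tead2 and 1.74, 0.382, 0.221 and 5.41 UPM for Tead4. Tead1 has more exonic bases (13570) than Tead2 (4788) or Tead4 (3598). The order of these plain levels therefore does not show which gene led per kilobase without those wells. Without division by length, Tead1 took 91.0 to 97.8% of TEAD UMIs in cardiomyocyte-like CM and 66.4 to 75.3% in fibroblast-like NCM wells. On that scale it took 26.7 to 63.6% in endothelial-like and 9.17 to 92.4% in macrophage-like NCM wells. The labels do not say which part of a transcript carried the UMI, so either scale may apply.

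**Figure D3:**
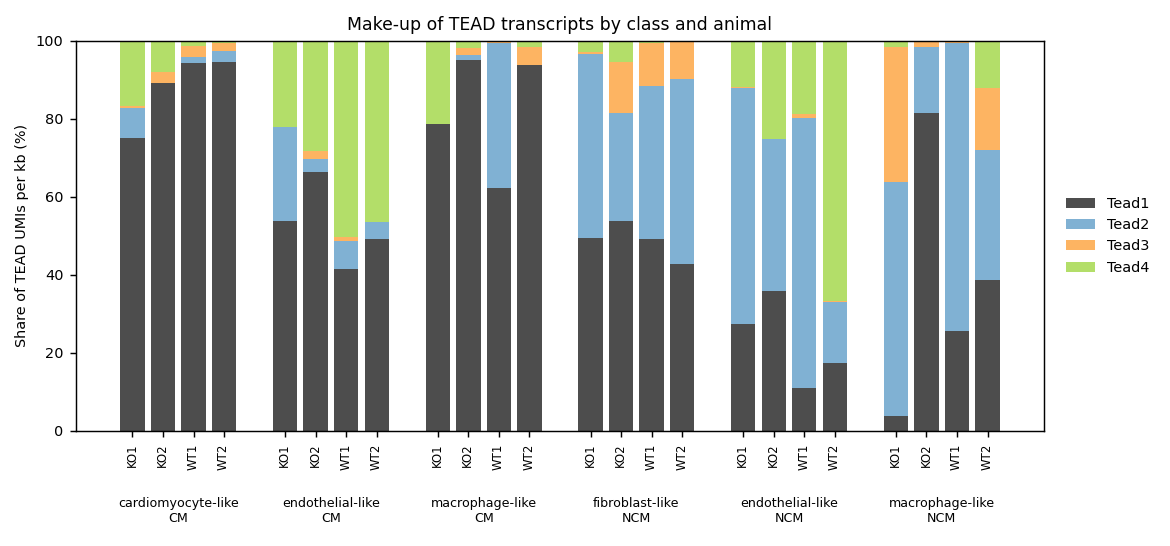
Share of TEAD UMIs per kilobase of exon (vertical axis, %) taken by Tead1, Tead2, Tead3 and Tead4 in each animal (bars, KO left of WT) of the classes named below the axis. Tead1 takes 74.9 to 94.5% in cardiomyocyte-like CM wells and 42.7 to 53.8% in fibroblast-like NCM wells, which differ in class and in fraction (67.98 to 99.1% in fibroblast-like CM wells).

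Between the 2 coactivators, Wwtr1 held the larger share per kilobase in every animal of the cardiomyocyte-like CM, fibroblast-like NCM and endothelial-like NCM wells. It took 73.8, 85.1, 88.9 and 66.0% of Wwtr1 and Yap1 UMIs per kilobase in cardiomyocyte-like CM wells of KO1, KO2, WT1 and WT2. The share was 87.0, 92.8, 88.8 and 87.3% in fibroblast-like and 92.2, 91.3, 96.1 and 97.8% in endothelial-like NCM wells. Macrophage-like NCM wells differed among animals, at 98.0, 96.9, 39.05 and 94.2%, so that Yap1 held the larger share in WT1. That share rested on a single well, which held 223 of the 254 Yap1 UMIs of WT1. Without the top well of each gene, WT1 held 1.78 UPM of Yap1 and 1.65 UPM of Wwtr1, not divided by length. In macrophage-like CM wells Wwtr1 took 51.4 to 96.4%. In plain UMIs the shares were 50 to 80.5% in cardiomyocyte-like, 77.6 to 86.9% in fibroblast-like and 84.5 to 95.9% in endothelial-like wells.

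A coactivator and a TEAD gene were often not seen in the same well. In cardiomyocyte-like CM wells at least 1 UMI of each kind was present in 4.44, 30, 18.4 and 32.6% of wells of KO1, KO2, WT1 and WT2. In fibroblast-like NCM wells the shares were 21.9, 31.3, 30.1 and 12.0%, in endothelial-like wells 13.3, 17.1, 9.68 and 12.6% and in macrophage-like wells 21.6, 15.2, 6.25 and 8.25%. KO1 cardiomyocyte-like wells had the lowest median depth outside mitochondrial and haemoglobin genes of that class, 19730 UMIs, against 129223 in KO2, 51095.5 in WT1 and 73724 in WT2. These shares were not thinned to 1 depth, so animals and classes are not ordered by them.

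No member passed between KO and WT in either fraction. In the NCM fraction edgeR called 0 of 17216 genes (0%) and DESeq2 579, and 2075 genes (12.1%) reached an unadjusted p under 0.05 in edgeR. Both KO animals stood above both WT animals for 3 of the 7 members, Yap1, Wwtr1 and Tead1, and below for 1, Vgll4, where 26.9% and 18.3% of all genes tested did so. Wwtr1, at 146.5 and 121 UPM in KO1 and KO2, against 68.7 and 61.5 UPM in WT1 and WT2, differed by log2 0.87 (SE 0.237, unadjusted p = 0.00920, edgeR adjusted p = 0.339). It alone among the members reached an unadjusted p under 0.05, and no member was called by DESeq2. Tead1, at 54.2 and 29.5 UPM in KO against 21.8 and 20.6 UPM in WT, differed by 0.80 (SE 0.376, edgeR adjusted p = 0.447), and Yap1 by 0.77 (SE 0.490, edgeR adjusted p = 0.556).

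Vgll4 in NCM wells stood at 15.05 and 40.7 UPM in KO1 and KO2, against 45.5 and 48.8 UPM in WT1 and WT2 (log2 −0.88, SE 0.527, edgeR adjusted p = 0.529). The level of KO2 rested on few wells: 936 of its 2197 UMIs lay in a single well, and without the top well of each animal the levels were 8.14 and 23.5 UPM in KO, against 39.7 and 43.2 UPM in WT. In the CM fraction edgeR called 0 of 14462 genes (0%), DESeq2 called 48 genes and no member, and 498 genes (3.44%), no member among them, reached an unadjusted p under 0.05 in edgeR. Tead1 alone did not overlap there, lower at 56.2 and 59.9 UPM in KO than at 78.2 and 81.4 UPM in WT (log2 −0.54, SE 0.385, edgeR adjusted p = 0.999), where 12.7% of genes had both KO animals below both WT animals and 15.8% above. The difference of the genotype effects, CM minus NCM, was −1.27 for Tead1 (SE 0.612, unadjusted p = 0.0753, edgeR adjusted p = 0.951). For no member did it pass, with 0% of genes called and 4.95% at an unadjusted p under 0.05.

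Within classes edgeR also called 0 of the genes tested between KO and WT (0% in each of the 4 classes), so that the values here describe these animals. In fibroblast-like NCM wells Vgll4 stood at 7.12 and 10.2 UPM in KO1 and KO2, against 50.03 and 47.4 UPM in WT1 and WT2. Both KO values lay far below both WT values, also without the top well of each animal (4.82 and 4.72 UPM in KO, against 37.1 and 35.3 UPM in WT). The log2 difference was −2.66 (SE 0.552, unadjusted p = 0.00195, edgeR adjusted p = 0.412), and its adjusted p was 0.000738 in DESeq2 and 0.0113 in edgeR with no filter on low counts. DESeq2 called 387 of 14303 genes in this class, and edgeR with no filter 290 of 22801. Of the 7 members, 4 had both KO animals above both WT animals (Yap1, Wwtr1, Tead1 and Tead4) and 1 below (Vgll4). Of the 14303 genes 25.4% and 18.1% did, and 10.6% had an unadjusted p under 0.05. Tead4 had 9 and 19 UMIs in KO1 and KO2, of which 8 and 12 lay in 1 well. WT1 had 3 Tead4 UMIs, and WT2 stood at 0 UPM. It could pass the low-count filter only through its KO counts, so its order is no result about genotype.

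Endothelial-like NCM wells gave a similar picture for Vgll4, at 10.7 and 16.5 UPM in KO1 and KO2, against 103 and 129 UPM in WT1 and WT2. The log2 difference was −3.08 (SE 0.711, unadjusted p = 0.00259, edgeR adjusted p = 0.568), with an adjusted p of 0.00351 in DESeq2 and 0.0336 in edgeR with no filter. DESeq2 called 257 of 11462 genes in this class, and edgeR with no filter 178 of 19902. In WT1 329 of 496 Vgll4 UMIs lay in a single well. Without the top well of each animal the levels were 6.04 and 12.8 UPM in KO, against 37.3 and 93.2 UPM in WT. Here 2 of the 6 members tested were above (Yap1 and Tead1) and 2 below (Vgll4 and Wwtr1), against 18.7% and 18.5% of the 11462 genes, and 7.35% of genes had an unadjusted p under 0.05. Endothelial markers took 1.35 and 1.05% of the UMIs of these wells in KO, against 1.74 and 1.91% in WT, with all 10 markers detected in each animal; their part in the difference was not tested. Endothelial-like CM wells, not tested between genotypes, held 2.03 and 6.13 UPM of Vgll4 in KO1 and KO2, against 19.9 and 32.2 UPM in WT1 and WT2, on 5 to 127 UMIs per animal.

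Vgll4 overlapped between the genotypes in the NCM wells that no marker set named. These numbered 423 of 715 and 439 of 747 in KO1 and KO2, against 279 of 692 and 247 of 703 in WT1 and WT2, and Vgll4 stood in them at 23.1 and 72.4 UPM in KO, against 67.1 and 29.1 UPM in WT. Of the clusters that held them, 3 were mostly KO wells. One had 276 and 16 NCM wells in KO, against 8 and 41 in WT, and another 104 and 181, against 5 and 6. The third, led by Saa3, had 12 and 234, against 19 and 29. A further cluster, led by class II genes, was mostly WT wells, with 31 and 8 in KO, against 247 and 171 in WT. The overlap of Vgll4 in unnamed wells is thus a comparison of largely different clusters. The named classes thus cover different portions of the NCM wells in the genotypes, and the part of this in the class differences was not tested. With coarser clustering (Leiden resolution 0.5 in place of 1.0) the endothelial-like NCM class held 403 and 97 wells in KO1 and KO2, against 77 and 197 in WT1 and WT2. At resolution 1.0 it held 105 and 82, against 62 and 151. In the larger class Vgll4 was again lower in KO at an unadjusted edgeR p under 0.05, and no member was called.

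The share of wells with at least 1 Vgll4 UMI was compared after thinning every well to 10000 UMIs. It was 3.64% (4 of 110 wells, exact 95% interval 1.00 to 9.05%) and 6.11% (8 of 131, 2.67 to 11.7%) in the fibroblast-like wells of KO1 and KO2, against 14.5% (22 of 152, 9.30 to 21.1%) and 9.16% (12 of 131, 4.82 to 15.5%) in WT1 and WT2. In endothelial-like wells it was 4.26 and 7.89% in KO, against 8.77 and 12.4% in WT. Both KO animals lay below both WT animals in each class, and KO minus WT averaged −6.95 and −4.52 percentage points. A two-sided exact permutation test gave p = 0.333, the smallest that 2 animals against 2 allow. With wells thinned to 5000 UMIs, KO minus WT averaged −3.73 points in fibroblast-like wells, again without overlap. In endothelial-like wells it averaged −4.24 points at that depth, and the genotypes overlapped (exact permutation p = 0.667). Neutrophil-like wells, taken as a class with little Vgll4, showed 0% (0 of 25, up to 13.7%) and 12.5% (2 of 16) in KO, against 4.41% (3 of 68) and 0% (0 of 34, up to 10.3%) in WT. Against the highest of these, 12.5%, the fibroblast-like share of WT1 alone was higher, and its interval (9.30 to 21.1%) includes 12.5%. That highest value rests on 2 of 16 wells, so neutrophil-like wells cannot show which shares lie above background. Before thinning the fibroblast-like shares were 12.3 and 13.4% in KO, against 22.2 and 17.3% in WT.

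**Figure D4:**
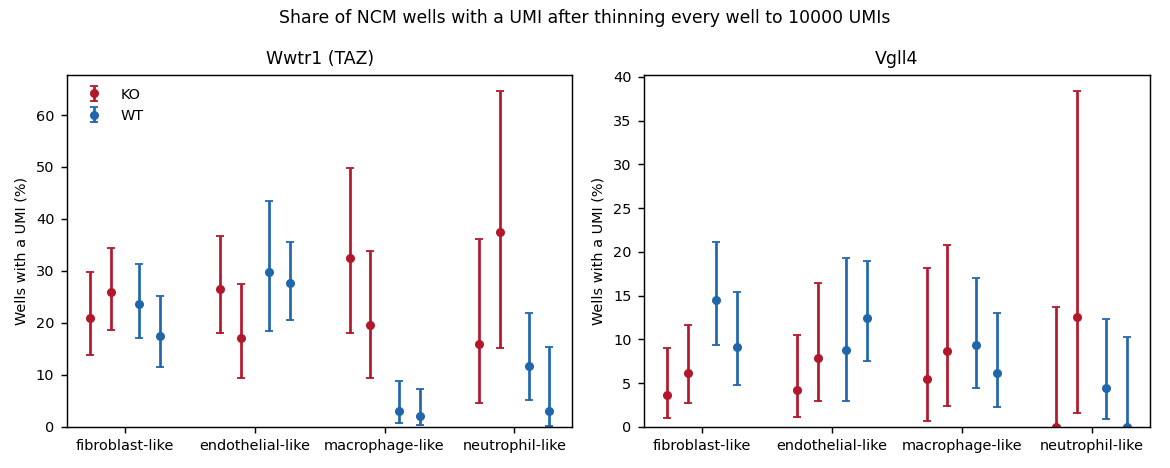
Share of NCM wells with at least 1 UMI of Wwtr1 or Vgll4 after thinning each well to 10000 UMIs (vertical axis, %), with 1 point per animal (KO left, WT right) and exact 95% binomial intervals, in fibroblast-like, endothelial-like, macrophage-like and neutrophil-like wells. Vgll4 shares are lower in both KO animals in the first 2 classes, and Wwtr1 shares are 32.4 and 19.6% in KO macrophage-like wells, against 3.13 and 2.06% in WT.

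Wwtr1 in macrophage-like NCM wells went the other way. It stood at 126 and 30.3 UPM in KO1 and KO2, against 4.54 and 6.00 UPM in WT1 and WT2, and at 101 and 22.1 UPM in KO, against 1.65 and 3.54 UPM in WT, without the top well of each animal. The log2 difference was 3.68 (SE 0.872, unadjusted p = 0.00506, edgeR adjusted p = 0.490), and its adjusted p was 0.00140 in DESeq2 and 0.0283 in edgeR with no filter. DESeq2 called 407 of 12203 genes in this class, and edgeR with no filter 237 of 20509. Wwtr1 was the 1 member of the 6 tested with both KO animals above both WT animals, and Vgll4 the 1 below, where 18.4% and 22% of the 12203 genes were, with 9.18% of genes at an unadjusted p under 0.05. The thinned share of macrophage-like wells with a Wwtr1 UMI was 32.4% (12 of 37) and 19.6% (9 of 46) in KO, against 3.13% (3 of 96) and 2.06% (2 of 97) in WT, with exact p = 0.333 over animals.

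Markers of other cells moved with this difference. Endothelial markers, all 10 of them detected in every animal, took 0.362 and 0.158% of the UMIs of the KO macrophage-like wells, against 0.0328 and 0.0488% in WT. Fibroblast markers took 0.193 and 0.290% in KO, against 0.112 and 0.137% in WT, and macrophage markers 1.59 and 1.46% in KO, against 2.67 and 2.97% in WT. In neutrophil-like NCM wells, 17 to 71 per animal, Wwtr1 stood at 250 and 362 UPM in KO, against 154 and 18.5 UPM in WT, with 42.3 to 66.1% of the UMIs in 1 well of each animal. The thinned share there was 16.0% (4 of 25) and 37.5% (6 of 16) in KO, against 11.8% (8 of 68) and 2.94% (1 of 34) in WT. The macrophage-like shares of KO2, WT1 and WT2 were at or below those of neutrophil-like wells of the same animals. Since neutrophil-like wells held Wwtr1 at a mean of 196 UPM, against 167 UPM in endothelial-like NCM wells, they gave no low background for this gene. The part of RNA from other cells in the Wwtr1 difference was not tested.

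In fibroblast-like wells Wwtr1 stood at 114 and 117 UPM in KO1 and KO2, against 64.0 and 49.6 UPM in WT1 and WT2 (log2 0.84, SE 0.345, edgeR adjusted p = 0.456). That order rested on a single well, which held 1051 of the 1807 UMIs of KO2. Without the top well of each animal the levels were 103 and 51.6 UPM in KO, against 56.8 and 44.0 UPM in WT, and the groups overlapped. In endothelial-like wells Wwtr1 was lower, at 131 and 121 UPM in KO, against 248 and 170 UPM in WT (log2 −0.75, SE 0.481, edgeR adjusted p = 0.781).

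Tead1 in cardiomyocyte-like CM wells stood at 75.1 and 56.4 UPM in KO1 and KO2, against 81.2 and 109 UPM in WT1 and WT2 (log2 −0.76, SE 0.386, edgeR adjusted p = 0.906). In fibroblast-like NCM wells it was higher in both KO animals, at 77.7 and 46.2 UPM, against 32.7 and 31.9 UPM in WT (0.74, SE 0.446, edgeR adjusted p = 0.602). The thinned share of cardiomyocyte-like wells with a Tead1 UMI was 18.6% (22 of 118) and 26.9% (67 of 249) in KO, against 28.3% (30 of 106) and 45.5% (75 of 165) in WT, with exact p = 0.333. Of the 7 members, 2 were above (Tead4 and Vgll4) and 2 below (Tead1 and Tead3) in this class. Of the 12249 genes 22.3% and 15% were, and 5.16% had an unadjusted p under 0.05. Tead4 had 19 and 52 UMIs in KO, 18 and 32 of them in 1 well, against 2 and 3 in WT. Here too it could pass the low-count filter only through its KO counts. Vgll4 in these wells, at 28.2 and 7.66 UPM in KO against 0.281 and 5.53 UPM in WT, had 83 of its 121 KO1 UMIs in 1 well. Yap1 overlapped between the genotypes in them, at 23.8 and 15.2 UPM in KO, against 11.1 and 22.8 UPM in WT (−0.05, SE 0.654, edgeR adjusted p = 0.995).

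**Figure D5:**
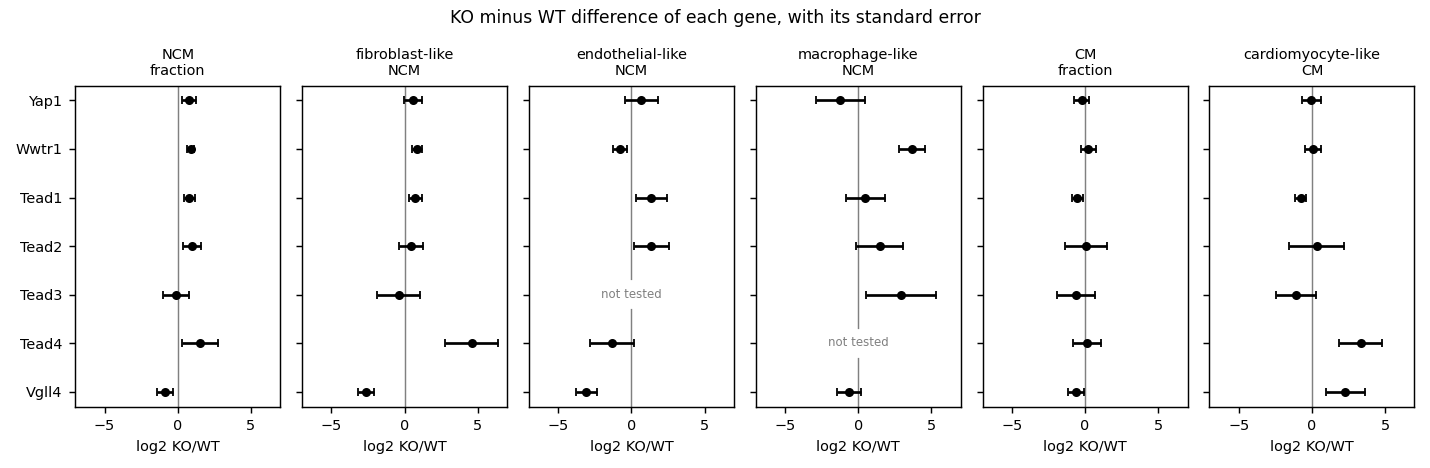
Log2 difference KO minus WT with its standard error (horizontal axis) for the 7 genes in the CM and NCM fractions and in 4 classes, from edgeR with 2 animals per genotype. No difference passed after adjustment over all genes; the differences farthest from 0 relative to their standard errors are those of Vgll4 in fibroblast-like (−2.66) and endothelial-like wells (−3.08) and of Wwtr1 in macrophage-like wells (3.68).

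For each member with a mean of at least 10 UPM over the NCM classes, the genes with the most similar pattern were found over 12 sums, 4 animals by 3 classes, among 8448 genes, as a Pearson correlation of log2(UPM + 1). The 12 sums share animals and chips, so the values are descriptions. Wwtr1 was most like Mprip (r = 0.962), Col4a2 (0.961) and Adh1 (0.959). Yap1 was most like Caprin1 (0.918), Zbtb10 (0.912) and Gars (0.910), Tead1 was close to Osmr (0.932) and Gpc6 (0.931), and Tead2 was most like Msl1 (0.956), Crbn (0.944) and Numb (0.942). Vgll4 was most like Atp5c1 (0.929), Heatr6 (0.884) and Pcmt1 (0.855), and its correlation with the other 4 members ran from −0.32 to 0.14. Among those 4, Yap1 with Tead2 had the highest value (0.68) and Wwtr1 with Tead1 the lowest (0.39).

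Other genes of the pathway were described through 22 reported targets of YAP and TAZ, 14 Hippo kinases and adaptors and 12 other cofactors or binders of TEAD or YAP. The lists overlap, so their counts are not independent. Amotl1, Amotl2 and Ptpn14 are both targets and cofactors here, and Lats2 is both a target and a Hippo gene. Between fractions, 1 of the 22 targets was called higher in CM and 2 lower, with a median log2 difference of −0.67, against −0.28 over all genes, of which 8.33% were called higher and 5.92% lower. Ankrd1, a nuclear stress-response gene of cardiomyocytes, stood at 2308, 2689, 1580 and 1783 UPM in the CM wells of KO1, KO2, WT1 and WT2, against 177, 227, 50.1 and 115 UPM in NCM (log2 4.58, SE 0.312, edgeR adjusted p = 9.17e-05). Every animal was far higher in CM. Axl, a receptor tyrosine kinase (−1.65, SE 0.354, edgeR adjusted p = 0.0149), and Gadd45b, a stress-induced gene (−1.92, SE 0.309, edgeR adjusted p = 0.00364), fell. The share of the Hippo genes called was close to that of all genes, 1 of 14 having fallen, Mob1a, an adaptor of the LATS kinases (−1.26, SE 0.288, edgeR adjusted p = 0.0199), and 1 of 10 tested cofactors rose, Ctnna1, the α-catenin gene (0.90, SE 0.241, edgeR adjusted p = 0.0380).

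In NCM classes 3 of 21 tested targets were higher in fibroblast-like than in macrophage-like wells and 0 lower, where 3.86% and 4.3% of all genes were, with a list median of 1.62 against 0.16 over all genes. These were the matricellular genes Ccn1 (log2 2.57) and Ccn2 (2.70), with Axl (2.52). Ccn2 stood at 429, 540, 150 and 179 UPM in the fibroblast-like wells of KO1, KO2, WT1 and WT2, against 33.0, 43.4, 34.4 and 21.5 UPM in macrophage-like wells. In endothelial-like wells 3 of 21 were higher than in macrophage-like wells (Ccn1, 1.53, Amotl2, 3.78, and Dlc1, 2.92) and Gadd45b was lower (−2.10), with a median of 1.53 against 0.04 over all genes. Of the cofactors, Amotl2, Tjp1 (3.27) and Ctnna1 (1.10) were higher there and of the Hippo genes Taok3 was lower (−2.43). Between fibroblast-like and endothelial-like wells Axl (2.65) and Gadd45b (1.38) were higher and Ctnna1 lower (−1.41). Each of these calls had an edgeR adjusted p under the threshold of 0.05.

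Between KO and WT no gene of the 3 lists was called in any fraction or class. In the NCM fraction 17 of the 22 targets had a positive log2 difference, with a median of 0.63 against −0.01 over all genes, 6 with an unadjusted p under 0.05 above and 1 below, where 12.1% of all genes had one in either direction. Amotl2, which encodes an angiomotin that binds YAP, stood at 48.6 and 52.9 UPM in KO1 and KO2, against 12.4 and 7.40 UPM in WT1 and WT2 (log2 2.21, SE 0.400, unadjusted p = 0.00123, edgeR adjusted p = 0.320). Both KO values were several times both WT values. Foxf2 differed by −4.22 (SE 2.47, edgeR adjusted p = 0.522) on levels of at most 5.40 UPM. Of the 14 Hippo genes 11 were positive (median 0.33), among them Sav1, the scaffold of the MST kinases, at 47.6 and 35.0 UPM in KO, against 7.83 and 14.7 UPM in WT (1.69, SE 0.448, unadjusted p = 0.00825, edgeR adjusted p = 0.339), and Map4k4 (0.84, SE 0.278, edgeR adjusted p = 0.367). All 10 tested cofactors were positive (median 0.53), including Amot (1.12, SE 1.28, edgeR adjusted p = 0.756) and Amotl2, which was also counted among the targets. In the CM fraction 11 of 21 tested targets were positive (median 0.08, against 0.01 over all genes). The same NCM wells held more mitochondrial and haemoglobin RNA in KO, and its part in these list medians was not tested.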

How the data were processed

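Counts of UMIs per gene and well are what the authors deposited: for each well the total over genes matched the gene-and-UMI pairs listed in its report. STAR 2.5.2b, Subread 1.4.6-p1 with featureCounts, and mm10 are named in the submitters' processing notes, while the strand setting, annotation release and UMI rule were not given in the sources used here. Animal and fraction come from the reports. The 70 spike-in columns (4.98e-05% of UMIs) and 40 control wells were left out, 0 columns were without a sample, and 28604 columns matched a symbol.

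Wells were clustered with scanpy 1.11.5 and leidenalg 0.10.2 (2000 variable genes, 30 components, 15 neighbours, resolution 1.0), giving 14 clusters. A cluster was named with at least 3 class markers among its 30 leading genes; clusters led by class II genes, haemoglobin genes, Saa3 or no marker set stayed unnamed. Scrublet marked 0 to 20 wells per chip as doublets, which were left in except in an alternative. Sums per animal were tested with the quasi-likelihood test of edgeR 4.0.16 (R 4.3.3; TMM, filterByExpr, Benjamini-Hochberg at 0.05 over all genes), with the animal as a block between fractions and classes. Classes needed 20 wells in every animal. DESeq2 1.42.0, library totals, no filter, mitochondrial and haemoglobin genes kept, wells under 30% mitochondrial, other clustering and leaving out each animal were tried. The edgeR step was tested on simulated data. Intervals are Clopper-Pearson at 95% and, like floors of 3 counts, cover counting error only. p values over 2 animals per genotype weigh a difference against the spread between these animals. They do not tell genotype from chip.

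The members and lists were chosen with earlier results of these data known. Text names the 7 members, Stk4 and Stk3, list genes that passed (otherwise the 2 with the largest difference) and the 3 most similar genes, of which 1 is not reported here. Levels of Ccn2 were chosen after its values were seen. matplotlib 3.10.9 drew the figures.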

Additional observations from a re-analysis of the deposited data

Results flagged for a closer look

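Wwtr1, Tead1 and Vgll4 stood out because both KO animals lay to 1 side of both WT animals in some classes and to the other side in others; these differences between classes were not tested, and only the difference between fractions was, for which no member passed. For Wwtr1 the log2 difference KO minus WT was 0.84 in fibroblast-like and 3.68 in macrophage-like wells and −0.75 in endothelial-like wells. The fibroblast-like order of Wwtr1 was lost without the top well of each animal, and its endothelial-like order with wells weighted equally, as was the macrophage-like order of Vgll4. For Tead1 it was 0.74 in fibroblast-like and 1.37 in endothelial-like NCM wells and −0.76 in cardiomyocyte-like CM wells. For Vgll4 it was −2.66 in fibroblast-like, −3.08 in endothelial-like and −0.63 in macrophage-like NCM wells and 2.27 in cardiomyocyte-like CM wells. Opposite orders of this kind were found for 5.28% of genes between fibroblast-like and endothelial-like wells, 5.71% between endothelial-like and macrophage-like wells and 6.8 to 7.99% between cardiomyocyte-like wells and the other 3 classes. Class comparisons within a genotype share animals and chips.

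In the KO2 NCM wells 1428 of 2197 Vgll4 UMIs lay in the 234 wells of a cluster led by Saa3, which no marker set named, at 138 UPM.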

How the results depend on the processing

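DESeq2 called more genes in every comparison: between KO and WT 579 in NCM, 48 in CM, 116 for the difference of these effects, 387 in the fibroblast-like class, 257 in the endothelial-like, 407 in the macrophage-like and 92 in the cardiomyocyte-like class, where edgeR called 0 in each. It called 4562 between CM and NCM (edgeR 2496), 2893 between fibroblast-like and macrophage-like (1237), 2588 between endothelial-like and macrophage-like (849) and 1798 between fibroblast-like and endothelial-like wells (492). With no low-count filter edgeR called, in the order of the 7 KO comparisons, 226, 47, 43, 290, 178, 237 and 119 genes, and 802 between fibroblast-like and endothelial-like wells. Library totals gave 3964 calls between CM and NCM, 1068 higher and 2896 lower, against 1459 and 1037 with TMM. They gave 1003 higher and 465 lower between fibroblast-like and macrophage-like wells, against 585 and 652, and 679 and 334 between endothelial-like and macrophage-like wells, against 360 and 489. In the last pair the median of all genes was 0.45, against 0.04 with TMM. Wells under 30% mitochondrial gave 750 calls between CM and NCM, with 18 NCM wells left in KO1. Leaving out 1 animal at a time gave 1252 to 2654 calls between CM and NCM, 545 to 921 between fibroblast-like and macrophage-like, 275 to 674 between endothelial-like and macrophage-like and 71 to 382 between fibroblast-like and endothelial-like wells. Between KO and WT it gave 0 to 1 in NCM, 0 in CM, 0 to 5 for the difference of effects, 0 to 1 for the fibroblast-like class, 0 to 118 for the endothelial-like, 2 to 54 for the macrophage-like and 2 to 664 for the cardiomyocyte-like class. An arm left with 1 animal was assumed to vary like the other.

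The replicate numbers do not come from labels that pair KO and WT animals. The correlation of same-numbered deviations was −0.0102 in NCM and 0.279 in CM sums and 0.00454 to 0.0844 in the 4 classes. With the replicate block edgeR called 0 genes between KO and WT in both fractions and in all 4 classes. Under the block 3 log2 differences KO minus WT changed sign: Tead2 in CM (−1.13), Yap1 (0.040) and Tead2 (−1.23) in cardiomyocyte-like wells. With no replicate block between classes, fibroblast-like minus macrophage-like was −0.71 for Tead3 and 0.12 for Vgll4, and calls numbered 2661 between CM and NCM.

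Of 786 alternative values for members, 712 kept their direction and side of the threshold, 4 lost and 19 gained a call, and 51 changed sign, 0 of them past the threshold in either setting. The sign changes outside leave-outs were, with library totals, Tead3 KO minus WT in NCM (0.038) and Yap1 in cardiomyocyte-like wells (0.19). With wells under 30% mitochondrial they were Tead3 (0.21) and Tead4 (−0.74) in NCM, Yap1 (0.030), Wwtr1 (−0.34), Tead2 (−5.75) and Tead4 (−0.95) in CM, Tead4 CM minus NCM (1.015) and the difference of effects for Tead3 (0.30). With DESeq2 Wwtr1 CM minus NCM was 0.0012. At Leiden resolution 0.5 Tead2 fibroblast-like minus endothelial-like was 0.25 and Yap1 KO minus WT in cardiomyocyte-like wells 0.0044. Leaving out 1 animal changed the sign of further differences in at least 1 case. KO minus WT ranged in NCM over −0.0065 to 1.56 (Tead2) and −0.035 to 3.88 (Tead4). In CM it ranged over −0.69 to 0.13 (Yap1), −0.27 to 0.98 (Wwtr1), −3.61 to 1.03 (Tead2), −2.17 to 0.077 (Tead3) and −0.19 to 0.51 (Tead4). CM minus NCM ranged over −0.355 to 0.050 (Wwtr1) and −0.81 to 0.59 (Tead4), and the difference of effects over −1.004 to 0.087 (Wwtr1), −1.98 to 0.21 (Tead3) and −0.22 to 1.20 (Vgll4). Fibroblast-like minus macrophage-like ranged over −0.23 to 3.34 (Tead3), and fibroblast-like minus endothelial-like over −0.035 to 0.67 (Yap1) and −0.49 to 0.058 (Tead2). KO minus WT ranged over −0.54 to 0.97 (Tead2) and −3.99 to 0.49 (Tead3) in fibroblast-like and −2.22 to 1.27 (Tead4) in endothelial-like wells. In macrophage-like wells it ranged over −2.17 to 2.02 (Yap1), −0.99 to 1.18 (Tead1), −1.65 to 2.37 (Tead2) and −2.74 to 6.79 (Tead3), and in cardiomyocyte-like wells over −0.52 to 0.58 (Yap1), −0.40 to 0.59 (Wwtr1) and −4.67 to 1.37 (Tead2). The causes were not tested. Of 189 alternative levels 18 moved by more than 1 SD, 7 with wells weighted equally and 11 without the top well. The 7 class comparisons with wells under 30% mitochondrial were not run, since a class had under 20 wells.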
